A study of Mus musculus with 4 samples.

Results

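The genes described here encode the enzymes of glycolysis, of pyruvate oxidation and of the tricarboxylic acid (TCA) cycle, with the cytosolic enzymes that share their substrates. The list held 52 genes by name. A gene counted as measured where the array had at least 1 probe set, a group of short oligonucleotides that report on the same transcript, annotated to that gene alone. This gave 49 of the 52 genes, out of 18193 measured genes in all, and each gene took its value from the probe set with the highest mean over the 4 arrays. Gpi1, Eno1 and Gapdh had no such probe set.

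The arrays measured total RNA of jejunal crypt epithelium, isolated with EDTA and a filter, from mice of a strain given as C57BL/6J enriched. The knockout group (YY1 knockout, 2 arrays) came from YY1f/f; Vil-Cre-ERT2 mice, in which the Villin promoter drives a tamoxifen-activated Cre recombinase in the intestinal epithelium, and tamoxifen was given for 4 days. The other group was labelled control (2 arrays); its genotype is not given in the sources used here, and the labels do not settle whether these mice received tamoxifen, so that effects of Cre-ERT2 or tamoxifen cannot be told apart from loss of Yy1. The replicates were labelled biological, but nothing ties an array to an animal, and the p-values measure the spread between these arrays.

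Glycolysis splits glucose into pyruvate in the cytosol. Pyruvate enters the mitochondrion, where the pyruvate dehydrogenase complex turns it into acetyl-CoA, and the TCA cycle oxidises acetyl-CoA to carbon dioxide while it feeds electrons to the respiratory chain. Crypts hold the stem and dividing cells of the intestinal lining, whereas the absorptive enterocytes that mature from them carry many mitochondria and, in the jejunum, also express genes of gluconeogenesis and fructose handling.

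Yy1, the zinc finger transcription factor that was deleted, read 1051 and 1006 in control replicates 1 and 2 and 139.7 and 142 in knockout replicates 1 and 2. All 4 of its probe sets fell (adjusted p up to 0.000790 by limma over all probe sets, of which 9.08% fell and 10.9% rose). Of 12 markers of the intestinal epithelium 9 were not called, among them Epcam at 9077 to 10334, Krt8 at 7189 to 8338 and the crypt stem cell marker Lgr5, which was dim at 59.6 to 69.2. The other 3 fell (25.0%, where 11.0% of all genes did). They were Olfm4, a crypt stem cell marker (5463 and 5279 against 3662 and 3332, -0.62 ± 0.10), the intestinal transcription factor Cdx2 (-0.39 ± 0.09) and the brush border gene Vil1 (-0.53 ± 0.15). In 8 of the 12 both knockout arrays lay below both controls (66.7%), which was so for 29.3% of all genes. The 16 measured enterocyte markers read 1218 to 16447 in the controls, lowest for Tmigd1 and highest for Apoa1, and 66.2 to 14819.5 in the knockout. These values are intensities on a linear scale, and the median of 27 control probe sets for bacterial genes, 31.9 to 35.6, served as a measure of background.

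Across the pathway, transcripts were mostly lower in the knockout. At an adjusted p under 0.05 by limma, 22 of the 49 genes (44.9%) fell, where 11.0% of all genes did, and 3 (6.12%) rose, where 13.4% of all genes did. The other 24 were not called. In 33 of the 49 genes both knockout arrays lay below both control arrays, which was so for 29.3% of all genes, and in 7 both lay above, which was so for 32.7%; the arrays overlapped in the remaining 9. The median log2 difference (knockout minus control, on log2(intensity + 16)) was -0.28, against 0.01 over all genes. The largest falls were in the fructose bisphosphatase Fbp1, the pyruvate dehydrogenase kinases Pdk2 and Pdk4, the succinyl-CoA ligase subunit Suclg2 and the cytosolic PEP carboxykinase Pck1. The 3 that rose were Pdk1, Pck2 and Acly. The count that fell rests on all 4 arrays: it was 7 without control replicate 1, 11 without control replicate 2, 11 without knockout replicate 1 and 20 without knockout replicate 2. Without control replicate 1, control replicate 2 or knockout replicate 1 the count that rose was 0, and without knockout replicate 2 it was 2. In bulk tissue, fewer cells of a type and less RNA per cell cannot be told apart.

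**Figure D1:**
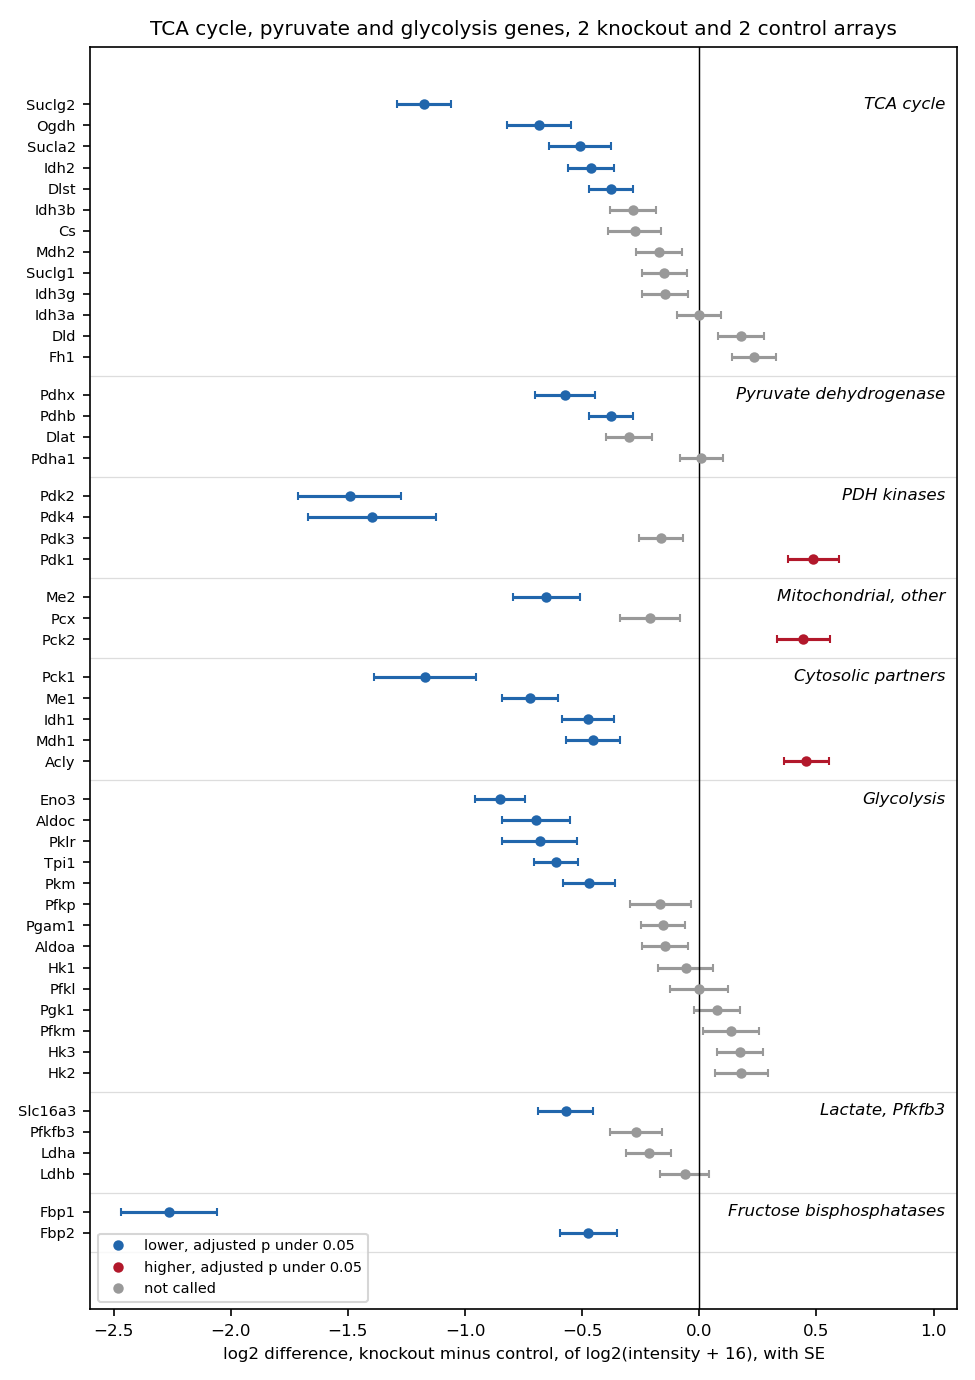
Each point is the log2 difference, knockout minus control, of 1 of the 49 measured genes on log2(intensity + 16), with its standard error as a bar (2 arrays per group), sorted by role. Blue points fell (22 genes), red points rose (3 genes) and grey points were not called (24 genes) at an adjusted p under 0.05 by limma; most points lie left of 0.

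Since many of these genes moved together, their promoters were read. RefSeq promoter windows of the build GRCm38.p6, from 250 bases before to 50 after a start, were used for 50 of the 52 genes; Idh3a and Me2 had no entry. Below are the 250 bases before the start of 4 genes that fell under every setting tried, 1 for each main role: Suclg2 of the TCA cycle (chr6:95718847-95719096), Pdk2 of the kinases (chr11:95041372-95041621), Tpi1 of glycolysis (chr6:124814159-124814408) and Fbp1 of gluconeogenesis (chr13:62888283-62888532). All 4 lie on the minus strand and are printed 5′ to 3′ in the direction of the gene. Capitals mark matches: in Tpi1 to GATGGC, read on the opposite strand, and in Pdk2 to the E-box CACGTG.
Suclg2: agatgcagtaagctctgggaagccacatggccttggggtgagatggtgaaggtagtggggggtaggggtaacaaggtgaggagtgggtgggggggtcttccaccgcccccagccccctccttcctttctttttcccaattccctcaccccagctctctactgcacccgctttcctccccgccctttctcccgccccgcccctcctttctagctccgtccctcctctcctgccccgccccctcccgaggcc
Pdk2: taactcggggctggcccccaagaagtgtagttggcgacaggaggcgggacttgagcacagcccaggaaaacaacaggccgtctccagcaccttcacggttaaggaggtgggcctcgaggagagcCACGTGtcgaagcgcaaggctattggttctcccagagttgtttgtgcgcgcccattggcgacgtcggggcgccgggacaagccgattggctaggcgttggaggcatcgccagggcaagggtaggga
Tpi1: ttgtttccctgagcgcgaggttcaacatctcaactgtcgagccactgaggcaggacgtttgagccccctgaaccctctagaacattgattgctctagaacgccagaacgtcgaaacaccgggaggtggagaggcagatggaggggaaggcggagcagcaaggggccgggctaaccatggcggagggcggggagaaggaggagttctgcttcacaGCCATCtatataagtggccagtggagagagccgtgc
Fbp1: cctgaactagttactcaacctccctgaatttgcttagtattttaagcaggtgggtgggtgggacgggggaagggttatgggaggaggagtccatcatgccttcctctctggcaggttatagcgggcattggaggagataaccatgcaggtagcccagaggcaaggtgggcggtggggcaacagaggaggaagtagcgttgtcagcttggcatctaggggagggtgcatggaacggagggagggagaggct
The Tpi1 match began 36 bases before the start, and the Pdk2 match 126 bases before it. The Suclg2 and Fbp1 stretches held neither string.

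A string from the motif known for YY1, AAGATGG, was searched as exact letters on both strands. It was in the windows of 7.28% of 27025 genes and of 2 of the 50 pathway genes, Idh3g and Ldhb, neither of which was called. The matches stand in capitals in these stretches from the minus strand, 130 bases before the start of Idh3g (chrX:73787011-73787037) and 220 bases before that of Ldhb (chr6:142508161-142508187).
Idh3g: tcccctccccAAGATGGcggaacagtg
Ldhb: ctattagcacAAGATGGagaccgtaca
None of the 21 genes that fell and had a window held this exact string. Variants of the motif other than the strings given here were not searched, so their absence is not shown. A longer form of AAGATGG, with further bases after it, was in 0.755% of genes and in 0 of the 50. The shorter GATGGC, which overlaps AAGATGG where a C follows, as in Idh3g, was in 15.9% of all genes, in 12 of the 50 and in 6 of the 21 that fell: Idh1, Mdh1, Me1, Slc16a3, Sucla2 and Tpi1. It is shown here in the direction of the gene for Sucla2, read on the gene's own strand (chr14:73552591-73552616) and for Me1, read on the opposite strand (chr9:86696136-86696161).
Sucla2: gaagcgttctGATGGCcccttgtcca
Me1: ctcgcccagtGCCATCgaggcctgga
CACGTG, the E-box read by MYC and its relatives, was in 8.09% of all genes, in 7 of the 50 and in 3 of the 21 that fell, Fbp2, Ogdh and Pdk2. The searches for GATGGC and CACGTG were added after the expression values were seen. A match describes the letters in the window and was not tested as a binding site.

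Of the 13 genes of the TCA cycle in the mitochondrion, 5 fell and none rose (median log2 difference -0.28). Suclg2, the subunit that makes succinyl-CoA ligase specific for GDP, read 996 and 903 in the controls and 445 and 379 in the knockout, a 2.26-fold fall (log2 difference -1.18 ± 0.12 SE, adjusted p = 0.00119 by limma). Both knockout arrays lay far below both controls, and its other probe set fell too (-1.26 ± 0.10). Sucla2, the ADP-specific partner of the same enzyme, read 3213 and 3168 in the controls against 1979 and 2527 in the knockout (-0.51 ± 0.13). Here knockout replicate 1 was the lowest array and the groups did not overlap. Another Sucla2 probe set fell (-0.41 ± 0.10), and a dim one was not called (-0.24 ± 0.11). With a pseudocount of 1 the Sucla2 call was lost (adjusted p = 0.05001 by limma). Suclg1, the alpha subunit shared by both forms, was not called (-0.15 ± 0.10, adjusted p = 0.322).

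The oxoglutarate dehydrogenase complex, which makes succinyl-CoA, had lower transcripts for 2 of its 3 components by their brightest probe sets. Ogdh, the component that binds oxoglutarate, read 1783 and 1707 in the controls and 948 and 1231 in the knockout (-0.68 ± 0.14, adjusted p = 0.0120 by limma). The other Ogdh probe set, at 996 to 1365, was not called (-0.317 ± 0.115). Dlst, the core transferase, read 2009 and 2043 against 1591 and 1521 (-0.38 ± 0.10, adjusted p = 0.0273 by limma). The 3 other Dlst probe sets were not called (-0.27 ± 0.10, -0.30 ± 0.12 and -0.18 ± 0.11). All knockout values of both genes lay below all control values, and knockout replicate 1 was the lower one for Ogdh and knockout replicate 2 for Dlst. Dld, the third component, which pyruvate dehydrogenase also uses, was not called (0.18 ± 0.10).

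Isocitrate is oxidised by separate enzymes. Idh2, the mitochondrial enzyme that makes NADPH, read 1615 and 1606 in the controls and 1214 and 1114 in the knockout (-0.46 ± 0.10, adjusted p = 0.0149 by limma), without overlap. The other Idh2 probe set was not called (-0.30 ± 0.11). The 3 subunits of the NAD-dependent enzyme of the cycle itself, Idh3a (0.00 in size, ± 0.10), Idh3b (-0.28 ± 0.10) and Idh3g (-0.15 ± 0.10), were not called. Citrate synthase Cs (-0.28 ± 0.11), fumarase Fh1 (0.23 ± 0.09) and the mitochondrial malate dehydrogenase Mdh2 (-0.17 ± 0.10) were not called either, though both knockout arrays of Cs and Mdh2 lay below both controls and those of Fh1 above. With 1 array left out, the adjusted p of Suclg2 stayed at or under 0.0102. Idh2 and Ogdh lost the call without either control (up to 0.0824 and 0.0663), Sucla2 without either control or knockout replicate 1 (up to 0.124), and Dlst without any 1 of the 4 arrays (0.0615 to 0.142).

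The pyruvate dehydrogenase complex itself had 2 of 4 genes lower. Pdhb, the beta subunit of the decarboxylase, read 2289.6 and 2291 in the controls and 1728 and 1789 in the knockout (-0.38 ± 0.09, adjusted p = 0.0264 by limma), and its other probe set fell as well. Pdhx, the component that anchors Dld in the complex, read 242 and 189 against 142 and 136 (-0.57 ± 0.13, adjusted p = 0.0182 by limma). The controls of Pdhx lay apart from each other, yet above both knockout arrays. Pdha1, the alpha subunit that the kinases phosphorylate, gave 2329 and 2359 against 2339 and 2379, overlapping arrays with a log2 difference of 0.01 ± 0.09. Dlat, the transferase of the complex, was not called with its brightest probe set (-0.30 ± 0.10, adjusted p = 0.0666), while 1 of its 2 other probe sets was lower (-0.57 ± 0.12). Pdhb kept its call only without knockout replicate 2 and Pdhx only without control replicate 2, and the adjusted p reached 0.130 and 0.103.

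The kinases that switch this complex off by phosphorylation moved in opposite directions. Pdk2 read 1126 and 1037 in the controls and 286 and 486 in the knockout, a 2.82-fold fall (-1.49 ± 0.22, adjusted p = 0.00395 by limma). Pdk4, the isoform known to rise in fasting, read 382 and 224 against 78.6 and 129 (-1.40 ± 0.27, adjusted p = 0.0108 by limma). In both genes knockout replicate 1 was the lowest array, and in intensity the Pdk4 controls differed from each other by more than the nearest control and knockout arrays did. Pdk1, known as a target of hypoxia-inducible factor, rose from 475 and 452 to 704 and 609 (0.49 ± 0.11, adjusted p = 0.0182 by limma), and 1 of its 3 other probe sets rose too (0.69 ± 0.15). Pdk3 was not called (-0.16 ± 0.09). Pdk2 was called with any 1 array left out. Pdk4 lost its call without knockout replicate 1 (adjusted p = 0.0520) and with a trended and robust prior variance (0.0530), and Pdk1 without either control or knockout replicate 1 (up to 0.109).

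Among enzymes that feed or drain the cycle inside the mitochondrion, Me2, a malic enzyme that makes pyruvate from malate, read 4199.9 and 3972 in the controls and 2257 and 2975 in the knockout (-0.65 ± 0.14, adjusted p = 0.0162 by limma). Of its 3 other probe sets 2 fell (-0.92 ± 0.12 and -0.47 ± 0.11). Pck2, the mitochondrial PEP carboxykinase, rose from 380.1 and 331 to 464 and 513 (0.44 ± 0.11, adjusted p = 0.0282 by limma), and its dimmer probe set was not called (0.17 ± 0.14). Neither gene had overlapping arrays. Pcx, the pyruvate carboxylase that supplies oxaloacetate, was not called (-0.21 ± 0.13), nor were any of its 4 probe sets among the array controls. Me2 lost the call without either control (up to 0.0842), and Pck2 without any 1 of the 4 arrays (0.0501 to 0.177).

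**Figure D2:**
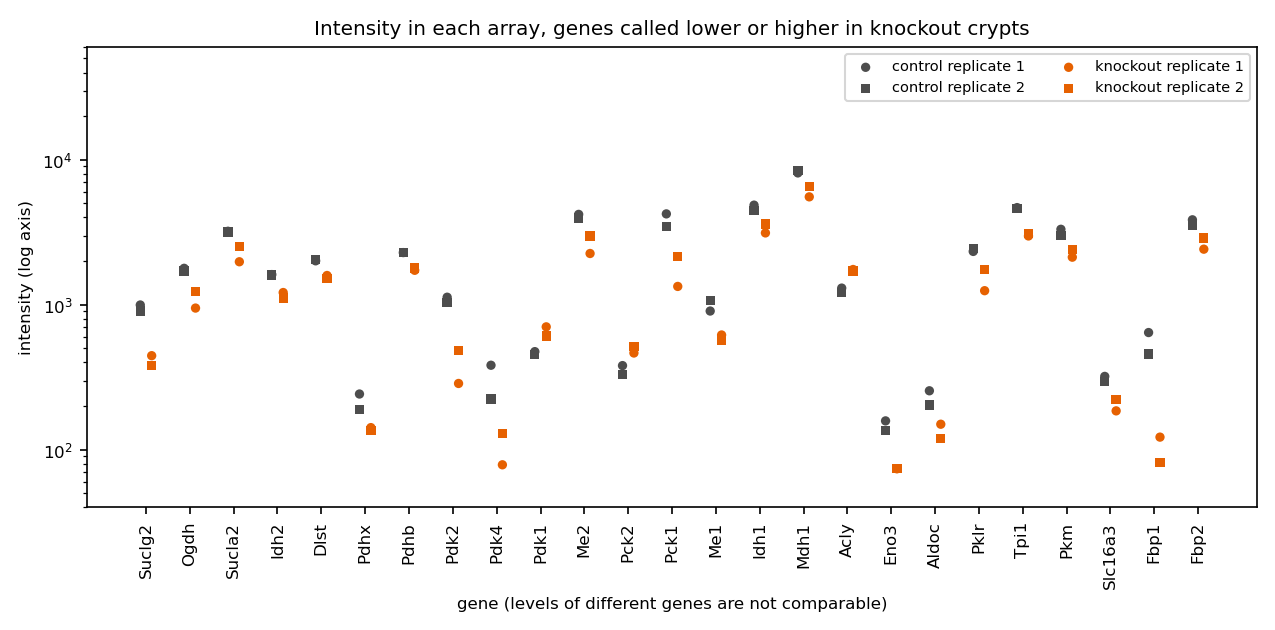
Points give the intensity (log axis) of the 25 called genes in each of the 4 arrays, control in grey and knockout in orange, with circles for replicate 1 and squares for replicate 2; levels of different genes come from different probe sets and are not comparable. In each gene both orange points lie on the same side of both grey points, above them for Pdk1, Pck2 and Acly and below them for the other 22.

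All 5 cytosolic partners were called, 4 lower and 1 higher. Pck1, the cytosolic PEP carboxykinase and a key enzyme of gluconeogenesis, read 4234 and 3482 in the controls and 1337 and 2151 in the knockout, a 2.25-fold fall (-1.17 ± 0.22, adjusted p = 0.00897 by limma). Me1, the malic enzyme that makes cytosolic NADPH, read 905 and 1075 against 618 and 565 (-0.72 ± 0.12, adjusted p = 0.00585 by limma), and its other probe set fell as well. Idh1, the cytosolic isocitrate dehydrogenase, read 4865 and 4483 against 3129 and 3599.99 (-0.47 ± 0.11). Knockout replicate 1 was the lowest array for Pck1 and Idh1, knockout replicate 2 for Me1, and no groups overlapped. Mdh1, the malate dehydrogenase of the malate-aspartate shuttle, read 8116 and 8422 against 5549 and 6556 (-0.45 ± 0.11, adjusted p = 0.0271 by limma). Of its other probe sets, a bright one fell (-0.37 ± 0.10). The rest were not called, another bright one (-0.37 ± 0.12) and dim ones (-0.22 ± 0.11 and -0.04 ± 0.11).

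Acly, which cleaves citrate to supply acetyl-CoA for lipid synthesis, rose from 1302 and 1211 to 1749.8 and 1709.7 (0.46 ± 0.10, adjusted p = 0.0151 by limma). Of its 5 other probe sets none was called; the 2 other bright ones gave 0.35 ± 0.11 each, and a probe set at the bottom of the scale, at 5.23 or less in every array, gave -0.26 ± 0.10. With 1 array left out Me1 stayed called (adjusted p up to 0.0416). Pck1 lost the call without control replicate 1 (0.0508) and with a trended and robust prior variance (0.0735), while Idh1, Mdh1 and Acly kept it only without knockout replicate 2 (up to 0.128, 0.137 and 0.108). The dimmest Pck1 probe set, at 40.6 to 56.1, gave 0.16 ± 0.13, and the remaining one fell (-2.23 ± 0.34).

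Several reactions run in both compartments with separate genes. For isocitrate dehydrogenase and malic enzyme both members of the pair fell, Idh1 with Idh2 and Me1 with Me2. PEP carboxykinase went apart, with Pck1 lower and Pck2 higher. The same was seen for aspartate transaminase, taken from the wider pathway list: Got1 of the cytosol went from 2629.5 and 2469.6 to 1629.95 and 1684 (-0.62 ± 0.10, adjusted p = 0.00510 by limma), and Got2 of the mitochondrion from 967 and 953 to 1716 and 1567 (0.76 ± 0.10, adjusted p = 0.00272 by limma). Of the 3 other probe sets of Got2, 1 rose (0.89 ± 0.10) and 2 dim ones, at 107 to 129 and at 1.1 to 3.65, were not called (-0.05 ± 0.12 and -0.12 ± 0.10). Other pairs of the wider lists fell together by their brightest probe sets. They were the acetyl-CoA synthetases Acss2 of the cytosol (-0.46 ± 0.10) and Acss1 of the mitochondrion (-1.67 ± 0.13). Glycerol phosphate dehydrogenase did so too, with Gpd1 of the cytosol (-0.96 ± 0.21) and Gpd2 of the mitochondrion (-0.44 ± 0.12). However, 1 other Acss2 probe set rose. Differences between the members of a pair were not tested.

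**Figure D3:**
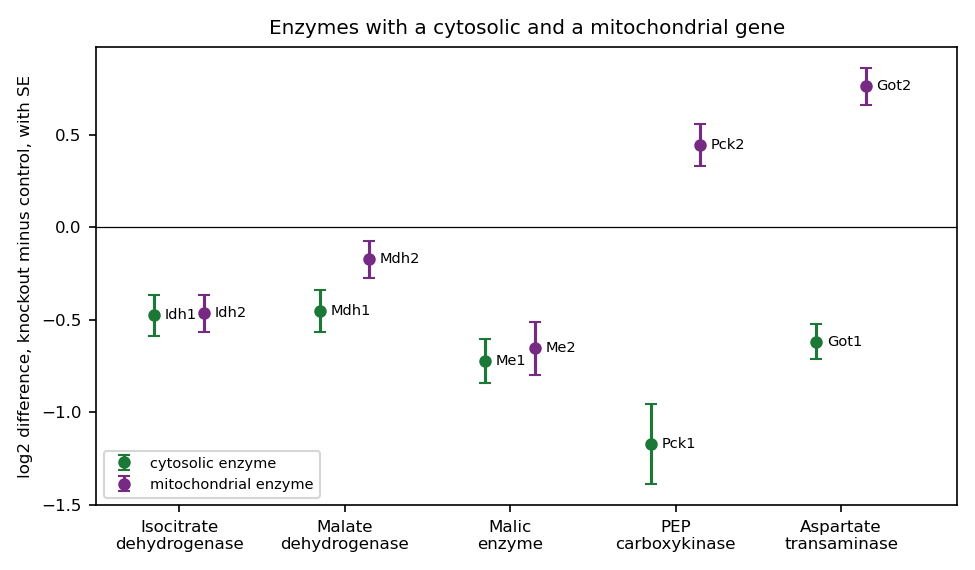
Log2 differences (knockout minus control, log2(intensity + 16), bars are standard errors, 2 arrays per group) of 5 enzymes with a cytosolic gene (green) and a mitochondrial gene (purple). Both genes lie below 0 for isocitrate dehydrogenase, malate dehydrogenase and malic enzyme, while Pck2 (0.44) and Got2 (0.76) lie above 0 and Pck1 (-1.17) and Got1 (-0.62) below it; Mdh2 was not called.

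In glycolysis 5 of 14 measured genes fell and none rose (median log2 difference -0.15). Tpi1, triose phosphate isomerase, read 4679 and 4615 in the controls and 2981 and 3087 in the knockout (-0.61 ± 0.09, adjusted p = 0.00477 by limma). The arrays of each group lay close together and far from the other group, and all 3 of its probe sets fell. Eno3, the enolase known from muscle, read 158 and 135 against 73.8 and 74.2 (-0.85 ± 0.11, adjusted p = 0.00248 by limma). Aldoc, an aldolase, read 255 and 203 against 149.8 and 119.99 (-0.70 ± 0.15, adjusted p = 0.0138 by limma). Both genes were dim in all arrays without overlap of the groups, and the other Aldoc probe set, at 61.1 to 67.4, was not called (-0.07 ± 0.10).

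Both pyruvate kinase genes, which encode the last step of the pathway, fell. Pklr, the isoform of liver and gut, read 2332 and 2438 in the controls and 1249.7 and 1752 in the knockout (-0.68 ± 0.16, adjusted p = 0.0210 by limma), while its 2 other probe sets gave -0.60 ± 0.21 and -0.76 ± 0.24 and were not called. Pkm, the isoform of most other tissues, read 3314 and 2990.1 against 2128 and 2411 (-0.47 ± 0.11, adjusted p = 0.0221 by limma). In both, knockout replicate 1 was the lowest array. Tpi1 and Eno3 stayed called with any 1 array left out (adjusted p up to 0.0346 and 0.0186). Aldoc lost the call without control replicate 1 (0.0809), and Pklr and Pkm without either control or knockout replicate 1 (up to 0.0997 and 0.136).

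The other 9 glycolysis genes were not called and lay between -0.17 and 0.18 on the log2 scale. They include the steps that commit glucose to the pathway: the hexokinases Hk1 (-0.06 ± 0.12), Hk2 (0.18 ± 0.11) and Hk3 (0.18 ± 0.10), and the phosphofructokinases Pfkl (0.00 in size, ± 0.12), Pfkm (0.13 ± 0.12) and Pfkp (-0.17 ± 0.13). The main aldolase Aldoa (-0.15 ± 0.10), phosphoglycerate kinase Pgk1 (0.08 ± 0.10) and phosphoglycerate mutase Pgam1 (-0.16 ± 0.09) complete them. The knockout arrays lay below both controls for Aldoa and Pgam1 and above them for Hk2 and Hk3. A missed threshold does not show that these levels were equal. Gapdh, glyceraldehyde phosphate dehydrogenase, was seen only with the array's control probe sets and with probe sets shared with its pseudogenes, and it is in none of the counts. Its 3′ control probe set read 8851 and 9050 in the controls and 6065 and 7096 in the knockout (-0.45 ± 0.11, adjusted p = 0.0317 by limma over all probe sets). The 5′ and middle control probe sets fell too (-0.70 ± 0.12 and -0.75 ± 0.12). Of the shared probe sets, the brighter ones fell (-0.46 ± 0.11 and -0.48 ± 0.10), and a dim one at 71.1 to 79.4 was not called (-0.09 ± 0.10).

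Of the genes around lactate, only Slc16a3, an exporter of lactate, was called: it read 320.2 and 297 in the controls and 185 and 221 in the knockout (-0.57 ± 0.12, adjusted p = 0.0124 by limma). Lactate dehydrogenases Ldha (-0.22 ± 0.10) and Ldhb (-0.06 ± 0.11) and Pfkfb3 (-0.27 ± 0.11), which makes the activator of phosphofructokinase, were not called, although both knockout arrays lay below both controls for Ldha and Pfkfb3. Slc16a3 lost its call without control replicate 1 or knockout replicate 1 (up to 0.0788). Both fructose bisphosphatases, which run a glycolytic step backwards in gluconeogenesis, fell. Fbp1 read 643 and 457 in the controls and 122 and 81.96 in the knockout, a 4.80-fold fall and the largest of the 49 genes (-2.26 ± 0.21, adjusted p = 0.000970 by limma). Fbp2 read 3853 and 3513 against 2417 and 2892 (-0.47 ± 0.12, adjusted p = 0.0287 by limma). The arrays of the groups did not overlap in either gene. Fbp1 stayed called with any 1 array left out (up to 0.00568), whereas Fbp2 kept its call only without knockout replicate 2 (up to 0.156).

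Set side by side, glycolysis (14 genes measured) and the mitochondrial steps (17 genes: the TCA cycle and the pyruvate dehydrogenase complex) had falls in 5 and 7 genes and rises in none by limma; at an unadjusted p under 0.05 the rises were 0 in glycolysis and 1 among the mitochondrial steps. Both knockout arrays lay below both controls in 7 of the 14 and in 13 of the 17. Over all genes 11.0% fell, 13.4% rose and 29.3% had both knockout arrays below both controls. The medians of the log2 differences were -0.15 and -0.28, so that glycolysis was 0.13 less low. Gapdh, with lower control probe sets, was not among the 14 glycolysis genes. For knockout replicate 1 alone, set against the control mean, the medians were -0.18 and -0.33, and for knockout replicate 2 they were -0.05 and -0.24. With the lactate genes and Pfkfb3 added to glycolysis, and the kinases and the enzymes that feed or drain the cycle added to the mitochondrial steps, the medians lay 0.12 apart. No test of this gap was made, and over the settings tried it lay between 0.0949 and 0.190. The glycolysis count was 2 without control replicate 1, 3 without control replicate 2, 3 without knockout replicate 1 and 5 without knockout replicate 2; for the mitochondrial steps the counts were 1, 2, 3 and 5.

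The wider pathway also held more falls than rises. Of 17 other measured genes of sugar handling, 7 fell (41.2%, against 11.0% of all genes) and none rose by limma, with 2 rises at an unadjusted p under 0.05; the falls include G6pc, the glucose phosphatase that ends gluconeogenesis, Khk, the ketohexokinase that starts fructose breakdown (-1.78 ± 0.22), Hkdc1, a hexokinase-like gene (-1.27 ± 0.13), and Pfkfb4 (-1.17 ± 0.15). G6pc went from 365 and 211 to 15.5 and 22.2, under the background measure, so the size of its fall is not exact. Of 22 further genes of pyruvate and the TCA cycle, 8 fell (36.4%, against 11.0% of all genes) and 4 rose (18.2%, near the 13.4% of all genes). Acss1, a mitochondrial acetyl-CoA synthetase (-1.67 ± 0.13), the succinate dehydrogenase subunit Sdhc (-0.69 ± 0.10), Mpc1 of the mitochondrial pyruvate carrier (-0.62 ± 0.10) and Got1 were the falls with the smallest p. The rises were Got2, Pdp1, the phosphatase that reactivates pyruvate dehydrogenase (0.58 ± 0.11), and Lias and Lipt1, which make and transfer the lipoyl group that the dehydrogenase complexes need (0.49 ± 0.10 and 0.73 ± 0.18). None of 7 measured genes of the pentose phosphate pathway was called by limma, and 1 (Rpia, which interconverts pentose phosphates, higher) had an unadjusted p under 0.05, with log2 differences between -0.21 and 0.26.

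Among 18 regulators of these genes, the deleted Yy1 included, 9 fell and 1 rose, against 11.0% and 13.4% of all genes. Apart from Yy1, the falls with the smallest p were Mlxipl, the carbohydrate response factor (-0.95 ± 0.09), Ppargc1a, a coactivator of mitochondrial genes (-1.79 ± 0.19), and Arnt, the partner of the hypoxia-inducible factors (-0.73 ± 0.10). Tfam, which maintains mitochondrial DNA, rose from 1149 and 1121 to 1804 and 1575 (0.56 ± 0.11, adjusted p = 0.00983 by limma). Of 13 other known targets of the hypoxia-inducible factors, 6 fell (46.2%) and 1 rose (7.69%), against 11.0% and 13.4% of all genes. Egln3 (-2.20 ± 0.16), Bnip3 (-1.25 ± 0.12), Vegfa (-0.82 ± 0.11) and Adm (-0.83 ± 0.14) led the falls, and Car9 (0.32 ± 0.09, adjusted p = 0.0485 by limma) was the rise.

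Other markers moved with these results. Of 16 measured enterocyte markers 12 fell (75.0%, where 11.0% of all genes did, median log2 difference -1.34). Their summed intensity was 97313 to 98094 in the controls and 48416 and 68819 in knockout replicates 1 and 2. All 16 were lower in knockout replicate 1 than in knockout replicate 2. Among the 49 pathway genes 34 were lower in replicate 1 than in replicate 2, among the 14 of glycolysis 11 and among the 17 mitochondrial steps 9, where 53.9% of all genes were. Of 17 measured proliferation markers 13 rose (76.5%, where 13.4% of all genes did, median 0.77). Their summed intensity was 24079 to 24416 in the controls and 34908 to 36766 in the knockout. Immune markers summed to 9522 to 9942 in the controls and 9129 to 9822 in the knockout, most of it from Lyz2 (7285 to 7977). Among the 12 measured, 2 were lower (16.7%), Cd3g (-0.69 ± 0.11) and Ptprc (-0.42 ± 0.12). Markers of mesenchyme and muscle summed to 2179 to 2427 and 2065 to 2211, with 2 of 13 lower (15.4%) and 1 higher (7.69%). Over all genes 11.0% fell and 13.4% rose. For endothelium (761 to 763 and 758 to 773) 0 of 5 were called by limma, and for red cells (441 to 462 and 433 to 448) 0 of 3. In both lists 0 had an unadjusted p under 0.05 by limma. Apart from Lyz2 the markers of these lists were low, with Cd79a at 35.6 to 40.4 and Tek at 16.6 to 32.4 near background. The signal of the 3′ over the 5′ Gapdh control probe set, a measure of RNA integrity, was 1.44 and 1.40 on the log2 scale in the controls and 1.71 and 1.65 in the knockout; for Actb it was 0.28 and 0.24 against 0.33 and 0.29. The part of these shifts in the results was not tested.

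**Figure D4:**
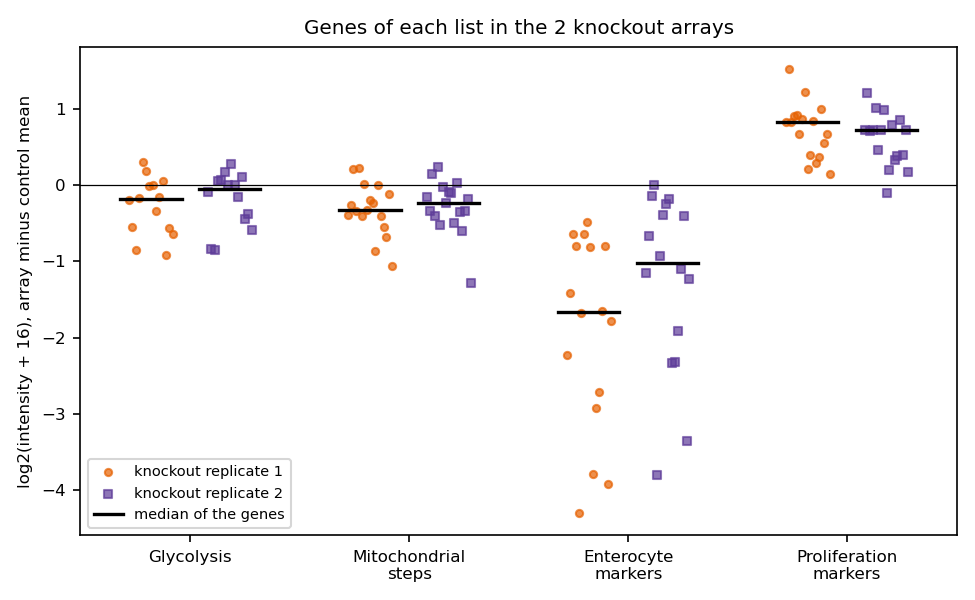
Each point is 1 gene: its log2(intensity + 16) in knockout replicate 1 (orange circles) or 2 (purple squares) minus the mean of both controls, with a black bar at the median of the list. Medians were -0.18 and -0.05 for glycolysis, -0.33 and -0.24 for the mitochondrial steps, -1.66 and -1.02 for the enterocyte markers and 0.82 and 0.72 for the proliferation markers.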

How the data were processed

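Expression was measured on 4 Affymetrix arrays, 2 per group, grouped by the sample titles. The authors deposited 1 intensity per probe set and array, on a linear scale; the summary method, background correction and normalization are not given in the sources used here. Array medians were 139 to 143, so no scaling was added, and array control probe sets were left out. Gene names came from the platform annotation in GEO and current RefSeq symbols (GRCm38.p6). Of the 112 probe sets of the 49 genes, those with the suffixes _s_at and _x_at can bind related transcripts.

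Tests used limma 3.58.1 in R 4.3.3 (lmFit, eBayes) on log2(intensity + 16), knockout against control without a block. Benjamini-Hochberg adjustment ran over 18193 genes, with calls at an adjusted p under 0.05. The other probe sets of a gene and the array controls were called in a separate fit, adjusted over all 45101 probe sets. Calls can differ between the fits, as for Vil1 and Car9, which were called only in the fit over genes. The log2 scale with this pseudocount understates changes of dim genes. Standard errors come from the moderated fits, with 7.05 degrees of freedom in the fit over genes, and 2 arrays per group limit the precision. The fit over genes was tested on simulated data. The members, gene lists and tests were chosen with earlier results of these data known. All called genes are given with their values in every array, the others with their difference. From each wider list up to 4 called genes with the smallest p are named, and all where 5 or fewer were called in a direction. Acss2, Gpd1 and Gpd2 are named besides, as members of a pair. Alternatives were other pseudocounts, scalings, filters, probe set rules, a prior variance setting, a replicate block and leaving out each array.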

Additional observations from a re-analysis of the deposited data

How the results depend on the processing

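Each result was recomputed under 15 settings besides the reported one, of which the probe set with the highest linear mean was chosen after seeing the data. Of the 25 called genes, 6 were called in all 15 (Suclg2, Pdk2, Me1, Tpi1, Eno3 and Fbp1), all lower. With 1 array left out, the pathway genes called lower ranged from 7 to 20 (22 reported) and higher from 0 to 2 (3 reported), the mitochondrial steps called lower from 1 to 5 (7), glycolysis called lower from 2 to 5 (5), all genes called from 2223 to 4366 (4439), the median of glycolysis from -0.180 to -0.0458, and the difference of the medians from 0.10 to 0.19 (0.13). With the probe set of lowest mean, 0 pathway genes were higher, 4 mitochondrial steps and 3 glycolysis genes lower, and the difference of the medians was 0.16; Acly (-0.26) and Pck1 (0.16) changed sign, both at dim probe sets and not called. With the mean over the probe sets 1 pathway gene was higher and the difference was 0.17, and without the suffixes _s_at and _x_at it was 0.0949. A trended and robust prior variance gave 11 mitochondrial steps lower and 1 higher, and ended the calls of Pdk4 (adjusted p = 0.0530) and Pck1 (0.0735). Fewer arrays leave fewer degrees of freedom, yet the counts differed with the array left out. The cause was not tested for any setting. Pseudocount, scaling, the filter on dim probe sets and the linear mean left these counts within 1.5 times the reported ones. Uncalled differences changed sign 18 times over all settings. With the replicate number as a block, 22 pathway genes were lower and 3 higher, 4881 genes were called in all, and no call of a pathway gene changed. Over the genes, replicate 1 minus replicate 2 in the controls correlated with the same difference in the knockout at 0.0969. The replicate numbers therefore do not establish a pairing. Genes near the bacterial background of 31.9 to 35.6, such as G6pc in the knockout, have no exact fold change.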
